A study of Mus musculus with 24 samples.

Results

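High-fat diet (HFD) was compared with chow in the aortic endothelium of wild-type (WT) mice, on 6 of the 24 arrays of the series. These were the 3 arrays of WT mice on HFD and the 3 arrays of WT mice on chow, labelled trials 1, 2 and 3, and the HFD and chow arrays of the same trial were taken as a pair. The other arrays held aortic endothelium of galectin-3 knockout (KO) mice and skeletal muscle endothelium of both strains under the same diets. Expression was read on single-colour Agilent mouse arrays hybridised with amplified, Cy3-labelled RNA.

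All mice of the comparison were males, labelled as wild-type C57BL/6 (C57BL/6 J in the methods), which carry an intact Lgals3 gene. HFD held 60% of its calories as fat and chow 12%. The mice were 8 weeks old when the diets started, and the aorta, from the root or arch to the iliac bifurcation, was taken after 8 weeks on the diet. Each array carried a pool of 3 mice by the study's methods and of 3 to 4 by the deposited description, so the spread between arrays is a spread between pools. Aortae were cleared of fat that adhered to them and digested with collagenase, and live cells that carried CD105 and lacked CD45 were sorted. CD105 is endoglin, a surface protein of endothelial cells that some activated macrophages also carry, and CD45, the product of Ptprc, marks leukocytes.

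Endothelial cells line the vessel, set its tone through nitric oxide and prostanoids, and admit leukocytes and lipids to the wall. On a fat-rich diet, the fat around the aorta grows and its adipocytes and macrophages change their secretion. The aorta also keeps circadian time: the activators Arntl and Npas2 drive the genes Nr1d1, Nr1d2 and Dbp, and the Nr1d proteins repress Arntl and Npas2 in turn.

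Values are log2 signals relative to the 75th percentile of the array, called relative signal below, and a log2 ratio is the HFD array minus the chow array of the same trial. A level is set only against the same probe on other arrays. Probes that were well above background on all 3 arrays of at least 1 diet were tested, which were 25038 probes. They stood for 13710 named genes, with the brightest probe taken for each gene. The 75th percentile of the 6 arrays lay between 4436 and 5645 intensity units, between 64.8% and 66.7% of their spots were well above background, and no spot was saturated. The 2 arrays of a trial shared a slide, trial 1 was scanned in 1 session and trials 2 and 3 in another.

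Lgals3, the gene deleted in the KO mice, lay at 2.80, 2.24 and 2.64 on the WT chow arrays of trials 1, 2 and 3 and at 3.20, 1.27 and 0.90 on the WT HFD arrays. The ranges of the diets overlapped (mean log2 ratio -0.77, SE 0.49, limma adjusted p = 0.882). On the KO aortic arrays the same probe lay between 2.40 and 4.53. Whether it lies in the deleted exons was not analysed, so it checks no label. At 19 probes that separated the strains in trials 2 and 3, the WT HFD array of trial 1 stood at a median position of 0.36 on a scale from 0 (WT) to 1 (KO), with quartiles of 0.09 and 0.61. The WT chow array of trial 1 stood at 0.07 and the KO HFD array of trial 1 at 0.38. The library labelled WT HFD trial 1 thus lay between the strains, and the main results are also given without trial 1. In muscle, too, the trial 1 HFD arrays lay between them, at 0.39 for the library labelled WT and 0.50 for that labelled KO.

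The endothelial label was checked against 20 marker genes. All 20 were well above background on all 6 arrays, and their summed relative signal was 428 to 748 times the 75th percentile on chow and 321 to 586 on HFD. Their median log2 ratio was -0.94, -0.74 and 0.45 in trials 1, 2 and 3, against -0.02, 0.14 and 0.02 over all genes tested. It was thus below that of all genes in trials 1 and 2 and above it in trial 3. Eng, which encodes the sorted protein CD105, had log2 ratios of -0.75, -0.80 and 0.99. Pecam1, a junction protein, had -1.08, -2.74 and 0.04, Cdh5, the cadherin of endothelial junctions, -1.31, -0.61 and 0.60, and Nos3, the endothelial nitric oxide synthase, -0.93, -1.54 and 0.70. The mean ratio was below 0 in 19 of the 20, and no marker was past 1 in all 3 trials or had an unadjusted p under 0.05.

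Markers of other cell types were present on every array as well. Of 10 fibroblast markers, all were well above background on all 6 arrays, as were 10 of 10 smooth muscle and 7 of 7 pericyte markers. On all 3 chow arrays 12 of 12 tested adipocyte and 12 of 12 tested macrophage markers were above it too, of 14 listed in each. On all 3 HFD arrays 11 adipocyte and 9 macrophage markers were. The remaining ones were tested only through their chow arrays, so for them the count on chow was set by the filter. The filter also favours a lower ratio on HFD for these members, which enter the counts and medians of both lists below. In RNA of a sorted population, fewer cells of a type and less RNA per cell cannot be told apart.

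Over all probes, limma with the trial as a block called 0 of 25038 at an adjusted p under 0.05 (0%). The smallest adjusted p was 0.178, and 1501 probes (5.99%) had an unadjusted p under 0.05, of which 719 were higher (2.87%) and 782 lower (3.12%). Taken by gene, 696 (5.08%) had such a p. The diets did not overlap in 3.73% of probes that were higher and 3.75% that were lower. The methods' t-test on the 3 ratios also gave 0 calls after adjustment and 1203 probes at an unadjusted p under 0.05. No gene named here passed the adjusted test, so each is given by its values, its direction in each trial and, as the study's own criterion, by a log2 ratio past 1 in the same direction in all 3 trials. That criterion was met by 182 probes that were higher on HFD (0.727%) and 213 that were lower (0.851%). In genes, these were 96 higher (0.700%) and 95 lower (0.693%) of the 13710.

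The trials resembled each other little. Across probes, the log2 ratios of trials 1 and 2 had a Pearson r of 0.25, those of trials 1 and 3 of 0.12 and those of trials 2 and 3 of 0.05, where probes are not independent replicates. The share of probes past 1 in either direction was 14.6% in trial 1, 28.1% in trial 2 and 18.3% in trial 3. The groups of genes below therefore fall into those whose ratio had the same direction in all trials and those whose ratio was large in 1 trial.

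**Figure D1:**
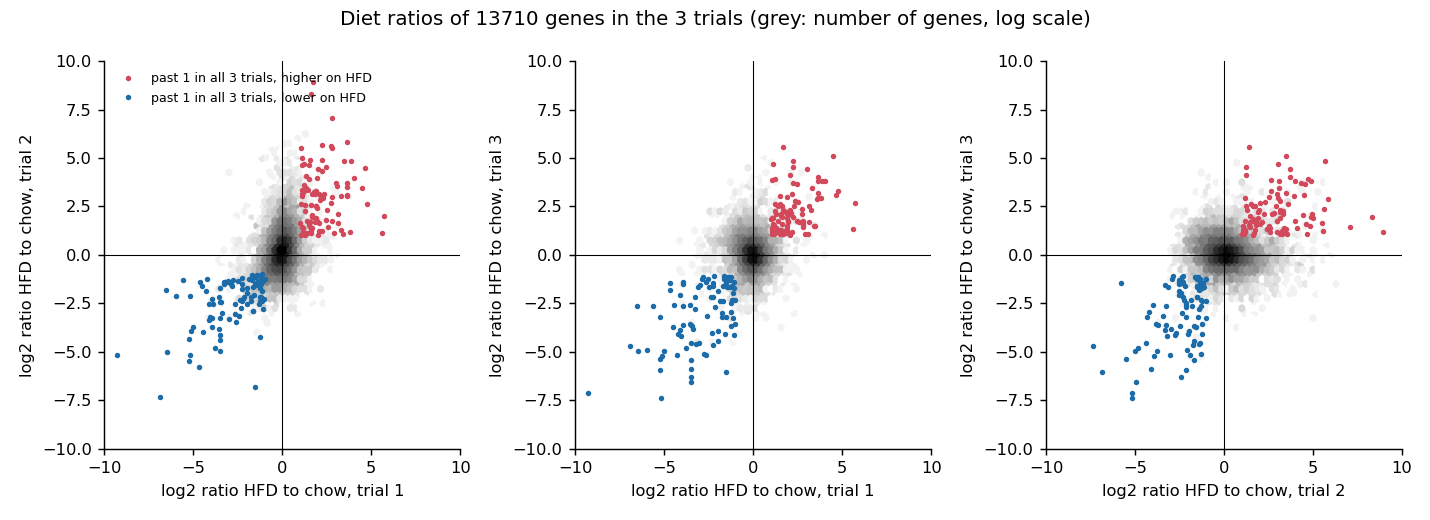
Log2 ratios of HFD to chow of the 13710 tested genes, each panel setting 1 trial against another; grey hexagons show the number of genes on a log scale. The 96 genes higher (red) and 95 lower (blue) by over 1 in all 3 trials lie apart from a cloud with little slope, with a Pearson r of 0.25, 0.12 and 0.05 across probes.

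Genes of adipocytes had the lowest median ratio of the 39 lists. Of 14 listed genes, 12 were tested, with 1 (Adrb3) matched to no probe and 1 (Lep) too dim to be tested. The median log2 ratio of the 12 was -3.04, -3.64 and -3.18 in trials 1, 2 and 3, and -3.52 without trial 1. The log2 ratio was below -1 in all 3 trials in 8 of the 12, against 0.693% of all genes, and 9 had a lower value at an unadjusted p under 0.05, against 2.28%. Among the 8, Acvr1c was tested only through its chow arrays. The summed relative signal of the list was 101 to 194 on chow and 9.22 to 20.9 on HFD.

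Adipoq, the insulin-sensitising hormone adiponectin, lay at 2.07, 2.79 and 4.35 on chow and at -4.39, -2.19 and -0.61 on HFD in trials 1, 2 and 3. Every HFD array was below every chow array, by 44.3-fold on average (mean log2 ratio -5.47, SE 0.41, limma adjusted p = 0.178, n = 3 pairs). Cfd, which encodes the complement protease adipsin, stood at 5.59, 5.64 and 5.91 on chow and 0.34, 1.33 and 2.71 on HFD, 19.1-fold lower. Retn, the hormone resistin, was at -0.99, 0.26 and 1.77 and -6.11, -3.65 and -3.44. In each of these secreted proteins the diets did not overlap.

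Genes of the lipid droplet followed. Plin1, the perilipin that coats the droplet, was at 0.42, 0.88 and 1.00 on chow and at -2.16, -2.55 and -2.16 on HFD, 8.32-fold lower (adjusted p = 0.211). Cidec, which fuses droplets, was at 4.28, 4.88 and 5.60 and 0.76, 1.60 and 1.98, and its log2 ratios of -3.52, -3.28 and -3.62 were close to each other. Car3, a carbonic anhydrase abundant in fat and muscle, had ratios of -3.54, -3.84 and -3.57. Cyp2e1, a cytochrome P450, had -3.49, -4.12 and -5.86, and Acvr1c, an activin receptor of fat, -1.24, -4.24 and -2.93, the last with overlapping diets and 2 of 3 HFD arrays above background. The 4 tested members that did not meet the criterion were Slc2a4, the insulin-responsive glucose transporter (-0.62, -1.98 and -0.57), Lipe, the hormone-sensitive lipase (-1.04, -1.69 and 0.63), Thrsp (-2.13, -2.06 and 0.56) and Plin4 (-0.75, 0.70 and -1.84). Slc2a4 was below 0 in all 3 trials, and the others took either sign.

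The brown adipocyte list did not keep a direction. Its 7 tested genes had a median of -1.84, -0.53 and 0.22 in trials 1, 2 and 3. Cidea, a droplet protein of brown fat, was at 3.72, 4.03 and 1.61 on chow and 0.31, 1.58 and 1.77 on HFD, and Ucp1, the uncoupling protein, had ratios of -2.84, -0.53 and 1.62. In both the diets overlapped. Dio2, the thyroid hormone deiodinase, was higher in all 3 trials (1.13, 3.99 and 0.22) and Cox8b, a respiratory subunit of brown fat, lower in all 3 (-2.05, -1.07 and -0.22).

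**Figure D2:**
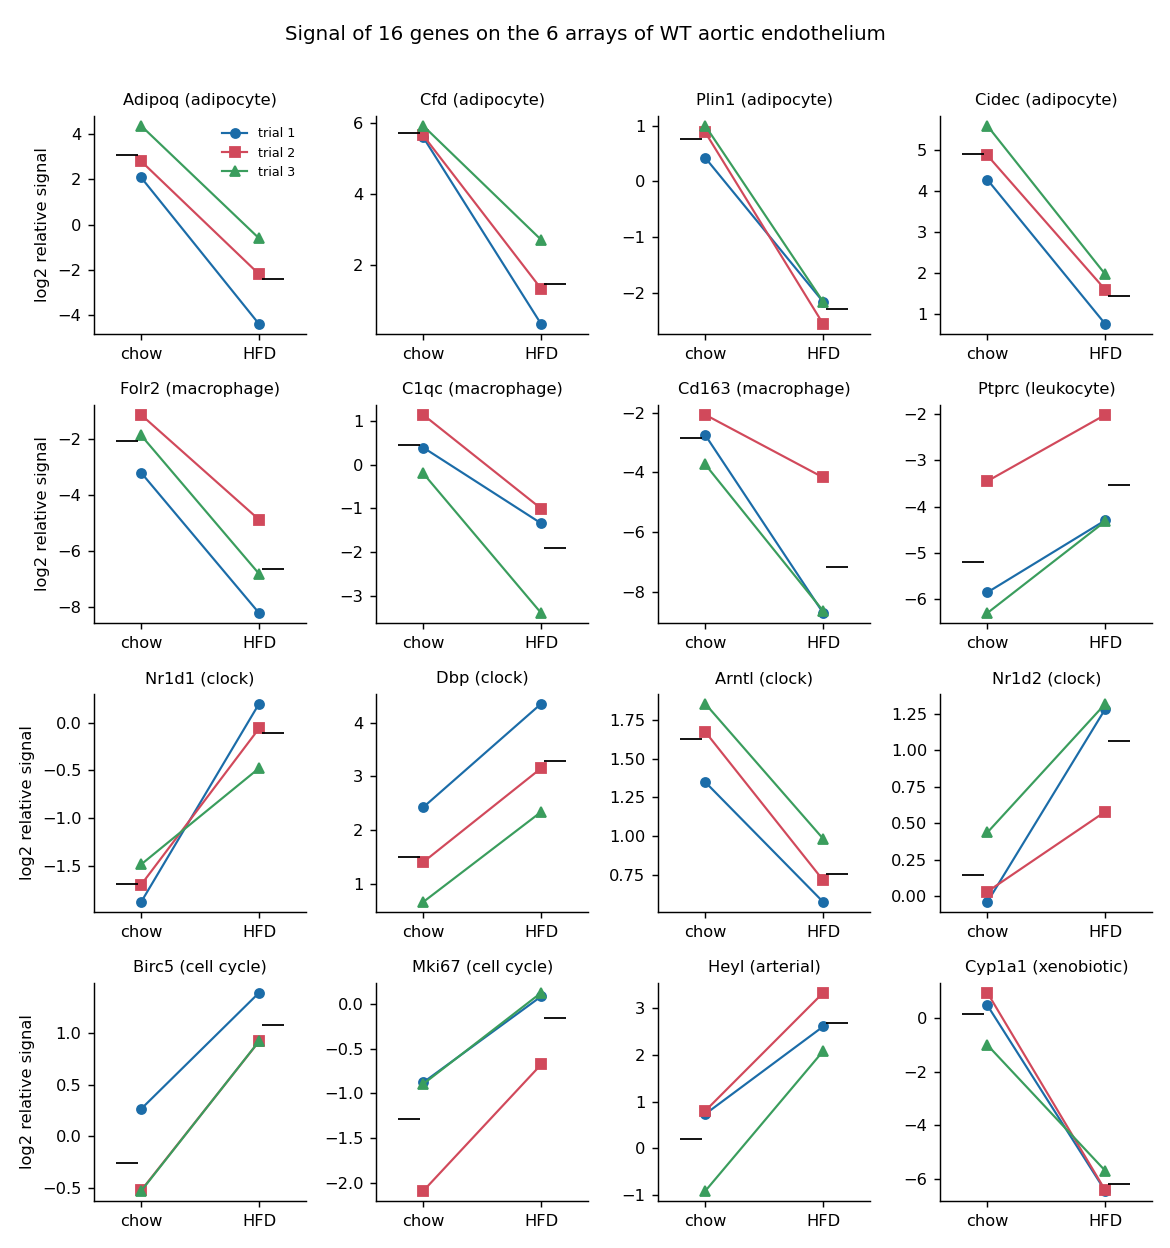
Relative signal (log2, each panel with its own axis) of 16 genes on the 6 arrays; lines join the chow and HFD arrays of a trial and black bars are the group means. Adipocyte and macrophage genes, Arntl and Cyp1a1 are lower on HFD in all 3 trials, and Ptprc, Nr1d1, Nr1d2, Dbp, Birc5, Mki67 and Heyl are higher in all 3.

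Genes of macrophages were the next group. Of 14 listed genes, 12 were tested, with a median log2 ratio of -0.90, -1.51 and -2.13 in trials 1, 2 and 3 and -2.05 without trial 1. Below -1 in all 3 trials were 4 of them, against 0.693% of all genes, and 8 were lower at an unadjusted p under 0.05 (2.28% of all genes). Among the 4, Folr2 and Cd163 were tested only through their chow arrays, where they were high, so these counts are set in part by the filter. The diets did not overlap in 6, all lower, against 3.45% of all genes. The summed relative signal of the list was 9.18 to 12.7 on chow and 4.53 to 8.73 on HFD, which is a smaller gap than that of the single genes.

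Folr2, a folate receptor of tissue-resident macrophages, was at -3.22, -1.15 and -1.89 on chow and at -8.22, -4.89 and -6.82 on HFD, where 1 of 3 arrays was above background (mean log2 ratio -4.56, SE 0.36, adjusted p = 0.179). Cd163, the haemoglobin scavenger receptor, was at -2.76, -2.08 and -3.74 and -8.72, -4.18 and -8.65, also with 1 HFD array above background. C1qc, a chain of complement C1q, was at 0.39, 1.15 and -0.20 and -1.34, -1.01 and -3.40, 5.15-fold lower on arrays that all measured it. Ms4a7 had log2 ratios of -2.46, -3.17 and -1.65. In all of these the HFD arrays lay below the chow arrays.

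Not every macrophage gene was lower. Csf1r, the receptor of the growth factor on which macrophages depend, had log2 ratios of 1.39, 0.18 and 0.61, and Cbr2 had 0.60, 0.41 and -0.79. C1qa had -0.99, -3.39 and -4.02 while C1qb had -0.35, 0.02 and -0.46, although both encode chains of the same complex as C1qc. Ptprc, the leukocyte antigen that the sort selected against, was at -5.86, -3.45 and -6.31 on chow, with 1 of 3 arrays above background, and at -4.30, -2.01 and -4.32 on HFD, with all 3 above it. It was higher on HFD in all 3 trials, by a mean log2 ratio of 1.66 (SE 0.26, adjusted p = 0.465), although the ranges overlapped. The other leukocyte list had a median of 0.66, 0.41 and 0.50, with 7 of 11 genes tested and Nkg7, a granule protein of cytotoxic lymphocytes, at 0.66, 1.64 and 0.66. Of the 7, all were above background on all 3 HFD arrays and 5 on all 3 chow arrays. The others, Ptprc among them, were tested only through HFD, so the filter favours a higher ratio for them.

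Of 4 tested platelet markers 1 was lower by over 1 in all trials, against 0.693% of all genes. Pf4, a platelet chemokine that macrophages also express, was at 2.04, 2.84 and 1.64 on chow and -0.21, 0.49 and 0.18 on HFD without overlap. Of the mesothelial list 2 of 6 genes were tested, both lower in all 3 trials, against 11.4% of all genes. Krt18, a keratin of simple epithelia, had ratios of -1.48, -1.53 and -1.64, and Wt1, a transcription factor of mesothelium, -1.01, -0.68 and -0.84. The levels of adipocyte and macrophage markers differed between the diets beside every result below, and their part in those results was not tested.

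By the mean over trials, the 15 genes with the lowest log2 ratio among those past -1 in all 3 trials included 6 of the lists above. Among the others were secreted proteins known from the liver. Pon1, the HDL enzyme paraoxonase, was at 0.56, 1.35 and 3.56 on chow and at -8.75, -3.79 and -3.54 on HFD, where 2 of 3 arrays were above background. Apoc3, the apolipoprotein that slows lipoprotein lipase, was at -3.56, 0.60 and 1.62 and -8.76, -4.55 and -5.74, also with 2 HFD arrays above it. Both were lower on every HFD array than on any chow array. Acsm3, a mitochondrial acyl-CoA synthetase, had the most even ratios of the 15, -5.26, -5.49 and -5.37, again with 2 HFD arrays above background. Its p was the smallest of all genes tested, with an adjusted p of 0.178.

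The rest of the 15 were on no list. Retnla, known from macrophages that respond to interleukin-4, had log2 ratios of -5.21, -2.12 and -5.93. Cd209b, a lectin of macrophages, had -1.53, -6.83 and -6.05, with 1 HFD array above background. Fcna, ficolin A, was above background on every chow array and on no HFD array, where it was at least 13-fold lower. Wfdc18 was at least 4.94-fold lower by the same bound. B3galt2, a galactosyltransferase, had ratios of -3.76, -4.81 and -4.81, with 1 HFD array above background. A bound sets the measured mean of the brighter diet against the lowest signal well above background on the arrays of the dimmer diet.

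Cyp1a1, a cytochrome P450 induced through the aryl hydrocarbon receptor, was at 0.46, 0.93 and -1.01 on chow and at -6.43, -6.41 and -5.68 on HFD in trials 1, 2 and 3. It had 1 of 3 HFD arrays above background and a mean log2 ratio of -6.30 (SE 0.61, adjusted p = 0.211), or -6.01 without trial 1. Its promoter is shown for the core letters to which that receptor binds, GCGTG or CACGC, in capitals. The window runs from 250 bases before to 50 after the start in the RefSeq table of GRCm38.p6, at chr9:57697363-57697662 (strand +), 5′ to 3′ along the gene.
Cyp1a1: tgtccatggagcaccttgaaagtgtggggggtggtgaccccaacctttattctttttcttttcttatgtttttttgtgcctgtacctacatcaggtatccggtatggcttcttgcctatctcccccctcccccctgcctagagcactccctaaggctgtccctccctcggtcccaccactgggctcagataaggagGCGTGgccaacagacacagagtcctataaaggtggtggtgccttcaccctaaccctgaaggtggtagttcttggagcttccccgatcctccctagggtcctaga
The only match begins at base -54 from the start. Such letters stand in 32.4% of all 32851 promoter windows of that length, so the match is a description and not a site.

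The 15 genes with the highest mean log2 ratio among those past 1 in all 3 trials were on none of the lists, and all 15 were dim on some chow array. Not above background on any chow array and above it on all 3 HFD arrays were Cxcr5, a chemokine receptor of lymphocytes, at least 5.55-fold higher, Rhd, a red cell antigen, at least 4.65-fold, and Pcdh8 and Lrrc55, each at least 4.34-fold higher. The bounds for Marchf1, Cenps and Serpind1 were 3.85, 3.15 and 2.90. Sox9, a transcription factor of cartilage and perivascular progenitors, was at -1.66, -7.71 and -3.44 on chow and at -0.05, 0.61 and -1.50 on HFD. Phex, a peptidase of bone, was at -1.42, -8.40 and -2.04 and 0.29, 0.52 and -0.84. In both the chow array of trial 2 was the low one, with ratios there of 8.32 for Sox9 and 8.92 for Phex. A dimmer probe of Sox9 had ratios of 0.88, 6.30 and 0.76 and was not past 1 in all 3 trials. Tbx20, a cardiac transcription factor, had even ratios of 3.64, 3.09 and 3.80, from a chow signal of -8.08, -3.50 and -8.49 that was above background on 1 array.

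Since dim probes led that ranking, the genes above background on all 6 arrays were ranked apart, a choice made after the values were seen. They were 34 of the 96 higher and 57 of the 95 lower genes. Heyl, a transcription factor downstream of Notch, was at 0.73, 0.80 and -0.91 on chow and 2.60, 3.32 and 2.08 on HFD, 5.51-fold higher with no overlap (mean log2 ratio 2.46, SE 0.32, adjusted p = 0.345). The rest of its list, arterial identity, did not follow it. Of 17 tested genes, 4 had a mean ratio above 0 and 13 below, with list medians of -0.47, -0.88 and 0.50 in trials 1, 2 and 3. Hey2, of the same family, had -0.47, -0.79 and -0.74. Serpina3f, a serine protease inhibitor, was 4.00-fold higher with ratios of 2.45, 1.82 and 1.73, Hc, complement C5, 4.11-fold with 2.80, 1.77 and 1.55, and Ubd, a ubiquitin-like protein induced by interferon, 3.93-fold with 1.66, 1.95 and 2.31. Ccn4, Gng8 and Dner were higher by over 1 in all trials, with the highest ratio in trial 2, where Ccn4 had 4.64, Gng8 5.54 and Dner 5.0. Of the lower ones, Slc26a4, an anion exchanger, had -4.04, -3.21 and -4.16.

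Of 11 core clock genes tested of 12, 2 were higher and 3 lower in all 3 trials, against 16.0% and 11.4% of all genes. Nr1d1, the repressor REV-ERB alpha, was at -1.88, -1.70 and -1.49 on chow and at 0.20, -0.06 and -0.48 on HFD. It was 2.98-fold higher with no overlap (mean log2 ratio 1.57, SE 0.31, adjusted p = 0.612), 1.32 on the log2 scale without trial 1. That is the brightest of its 3 probes, and the other probes, above background on all 6 arrays, had mean log2 ratios of 0.44 and 0.39. Its paralogue Nr1d2 had log2 ratios of 1.32, 0.55 and 0.88. Of the activators, Arntl, which encodes BMAL1, was lower in all 3 trials, at 1.35, 1.67 and 1.85 on chow and 0.58, 0.72 and 0.98 on HFD, and Npas2 had ratios of -0.99, -0.39 and -0.98, with no HFD array above background. The ranges of Arntl did not overlap.

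Clock had ratios of -0.02, -0.25 and 0.12, and Per1, Per2, Cry1 and Cry2 took either sign between trials. Of the 11, Nr1d1 and Nr1d2 were higher at an unadjusted p under 0.05, against 2.79% of all genes. Per3 was too dim to be tested.

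Among 7 clock output genes, Dbp, a transcription factor driven directly by the clock, was at 2.42, 1.40 and 0.66 on chow and 4.36, 3.15 and 2.34 on HFD. It was 3.45-fold higher with even ratios of 1.93, 1.75 and 1.68 (SE 0.23, adjusted p = 0.353), although the arrays of different trials overlapped. Tef, of the same family, had 0.26, 0.41 and 0.34. Hlf had -0.14, 2.30 and -0.04 and Bhlhe41 0.05, 2.01 and 0.00, both carried by trial 2. The hour at which the mice were killed is not given in the sources used here.

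The promoters of Nr1d2 and Arntl, of which the first was higher and the second lower in all 3 trials, are shown for AGGTCA, the half-site that Nr1d receptors bind, or its reverse TGACCT, in capitals. Both windows are from RefSeq GRCm38.p6, for Nr1d2 at chr14:18239057-18239356 (strand -) and for Arntl at chr7:113207261-113207560 (strand +), the latter 1 of 2 starts listed.
Nr1d2: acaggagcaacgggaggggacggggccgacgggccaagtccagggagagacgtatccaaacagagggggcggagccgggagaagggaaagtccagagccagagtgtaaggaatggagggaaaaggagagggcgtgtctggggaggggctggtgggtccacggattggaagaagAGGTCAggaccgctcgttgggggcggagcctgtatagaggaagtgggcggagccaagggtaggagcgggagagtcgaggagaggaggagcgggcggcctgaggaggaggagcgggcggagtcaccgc
Arntl: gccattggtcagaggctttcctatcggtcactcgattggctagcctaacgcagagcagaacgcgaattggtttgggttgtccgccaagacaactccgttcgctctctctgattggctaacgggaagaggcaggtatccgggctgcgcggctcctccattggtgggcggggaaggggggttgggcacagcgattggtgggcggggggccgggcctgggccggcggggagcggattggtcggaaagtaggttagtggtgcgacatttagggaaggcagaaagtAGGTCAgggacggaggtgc
Counted from the start of the transcript, the match begins at base -77 in Nr1d2 and at base 32 in Arntl. Of the 15 tested clock genes with a window, 5 held the half-site, against 18.1% of all genes, and 5 held the E-box CACGTG (Bhlhe41, Ciart, Cry1, Per1 and Tef), against 8.09%. Nr1d1 and Dbp were not among the genes with either match, which can mean that no such letters were found or that no window was searched. The D-box TTATGNAA, or TTNCATAA on the other strand, was in 1 of the 15, Per1.

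The mean log2 ratio was above 0 in 19 of 21 tested genes of cell division, of 22 listed. Of the 21, 10 were higher and 2 lower in all 3 trials, against 16.0% and 11.4% of all genes, and the median log2 ratio was 0.22, 0.29 and 0.78. At an unadjusted p under 0.05, 5 were higher, against 2.79% of all genes. In 6 the diets did not overlap, all higher, against 3.76% of all genes. Birc5, survivin, was at 0.27, -0.52 and -0.53 on chow and at 1.39, 0.92 and 0.92 on HFD, 2.52-fold higher (mean log2 ratio 1.33, SE 0.24, adjusted p = 0.552). Mki67, the proliferation antigen Ki-67, was at -0.88, -2.09 and -0.90 and 0.08, -0.68 and 0.12. In both every HFD array was above every chow array.

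Hmmr, a spindle protein, had log2 ratios of 1.79, 3.23 and 1.25, Top2a, the topoisomerase of dividing cells, 1.69, 0.29 and 1.76, and Bub1b, a spindle checkpoint kinase, 1.59, 0.37 and 0.77. Among replication genes, Pcna had -0.10, -0.82 and -0.08, Mcm2 -0.09, 0.29 and 0.13 and Mcm6 0.00, -0.19 and -0.27. The list held no gene that was past -1 in all trials. Ccnb1 had the largest mean, with ratios of -0.45, 5.51 and 2.10 that turned between trials.

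The promoters of Mki67 and Top2a are shown because both genes were higher in all 3 trials and hold repeats of motifs common to mitotic genes. Capitals mark the CCAAT box (CCAAT or ATTGG) and the cell cycle homology region, CHR (TTTGAA or TTCAAA), in the RefSeq GRCm38.p6 windows at chr7:135716330-135716629 (strand -) and chr11:99024140-99024439 (strand -).
Mki67: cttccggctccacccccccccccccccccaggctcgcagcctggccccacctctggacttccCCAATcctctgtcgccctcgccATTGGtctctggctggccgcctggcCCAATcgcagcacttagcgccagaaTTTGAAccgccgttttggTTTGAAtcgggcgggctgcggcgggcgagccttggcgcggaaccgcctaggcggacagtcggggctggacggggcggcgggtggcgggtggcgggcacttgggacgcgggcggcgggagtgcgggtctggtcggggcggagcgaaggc
Top2a: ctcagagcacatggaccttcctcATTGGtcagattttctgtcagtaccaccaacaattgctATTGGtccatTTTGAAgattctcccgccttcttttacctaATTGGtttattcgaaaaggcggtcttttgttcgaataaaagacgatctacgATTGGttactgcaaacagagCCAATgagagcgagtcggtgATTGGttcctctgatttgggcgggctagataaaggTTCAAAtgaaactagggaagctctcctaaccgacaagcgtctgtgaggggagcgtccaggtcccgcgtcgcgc
Mki67 held 3 CCAAT boxes and 2 CHR letters, and Top2a 6 and 2. Of 19 tested cell cycle genes with a window, 17 held a CCAAT box, against 41.1% of all genes, and 11 a CHR, against 20.2%. Birc5, which was higher too, was not among the genes with either match, which can also mean that no window of it was searched. The matches say nothing of the factors.

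**Figure D3:**
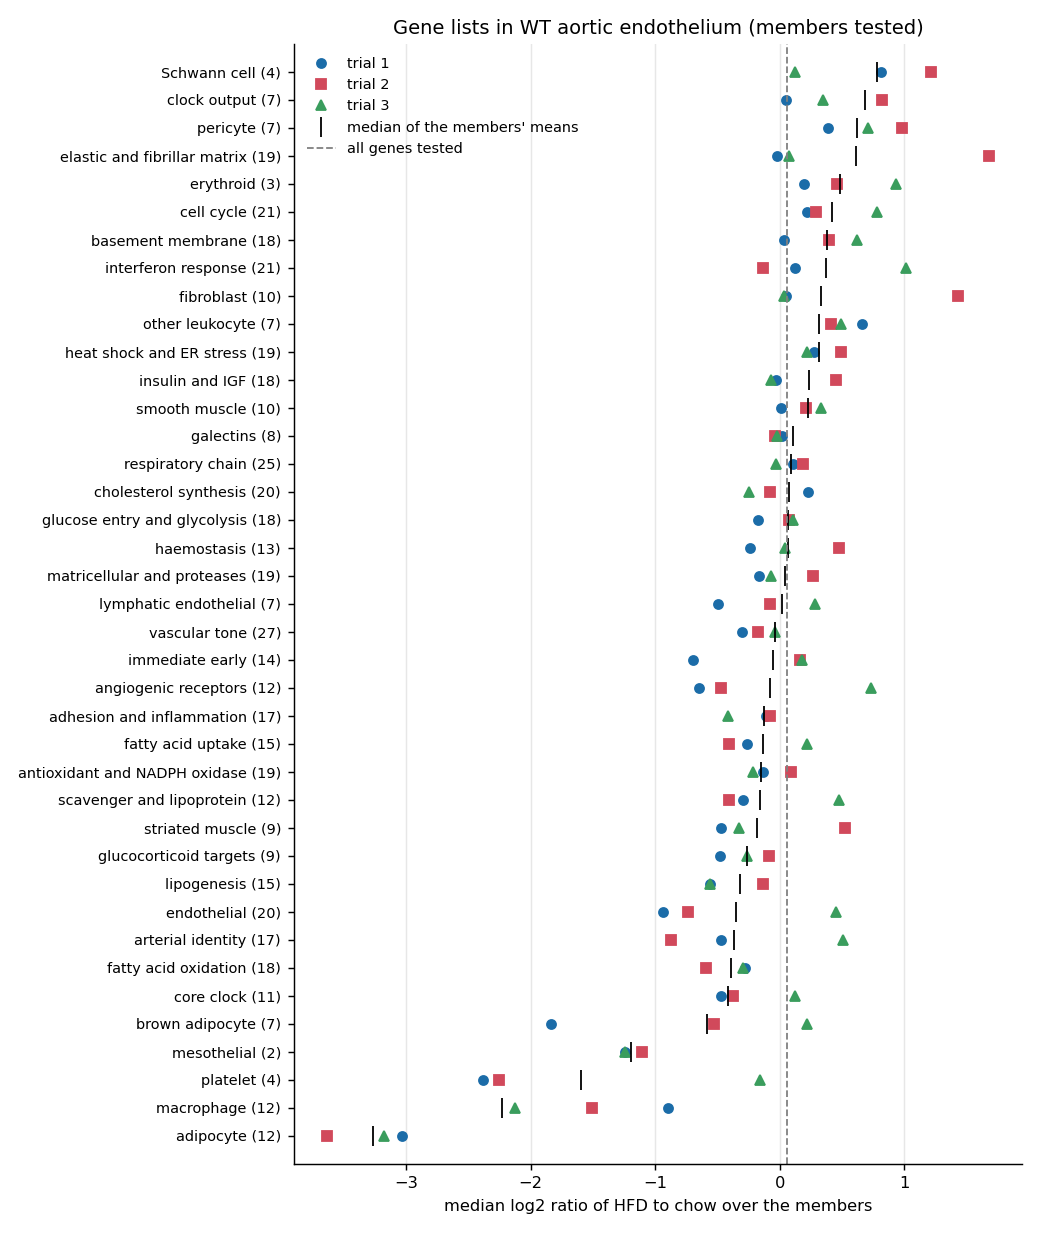
Median log2 ratio of HFD to chow over the tested members of 39 gene lists (number in brackets) in trials 1, 2 and 3, with the median of the members' means as a bar; the dashed line is the median of all genes. The adipocyte, macrophage and mesothelial medians lie at -0.90 or lower in every trial, while the endothelial list has -0.94, -0.74 and 0.45 and the fibrillar matrix -0.02, 1.68 and 0.08.

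Matrix genes were high in 1 trial. The 19 tested genes of elastic and fibrillar matrix had a median log2 ratio of -0.02, 1.68 and 0.08 in trials 1, 2 and 3, and the 10 fibroblast markers of 0.05, 1.43 and 0.04. Col6a1 had -0.29, 2.79 and 0.07, Eln, elastin, -0.49, 2.2 and 1.49, Loxl1, which cross-links elastin, 0.79, 3.06 and 0.03, and the fibroblast receptor Pdgfra 0.10, 2.25 and 0.06. Fibroblast markers summed to 322 to 575 on chow, where trial 2 had the lowest sum, and to 421 to 592 on HFD. No matrix gene was past 1 in all trials. Col5a3, a fibrillar collagen chain, had 1.11, 2.46 and 0.93, and Emilin1, an elastic fibre glycoprotein, had 0.54, 0.80 and 1.00.

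Of the basement membrane, 6 of 18 tested genes were higher in all 3 trials and 0 lower, against 16.0% and 11.4% of all genes. Lamb1, a laminin chain, had ratios of 0.61, 0.81 and 1.48 and Nid2, nidogen 2, 0.67, 0.42 and 0.88. Col15a1 was at 1.95, -0.71 and 1.74 on chow and 3.09, 3.06 and 2.05 on HFD, without overlap but with trial 2 at 3.77. Among matricellular proteins and proteases, Thbs1, thrombospondin 1, was lower by over 1 in all trials, at -3.17, -1.49 and -2.24 on chow and -4.49, -4.0 and -3.52 on HFD. Mmp9, a gelatinase of macrophages and neutrophils, had -3.25, -1.42 and -2.78, with 1 HFD array above background and overlapping ranges. Adamts8 had 2.93, 3.35 and 0.82, higher in all 3 trials.

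**Figure D4:**
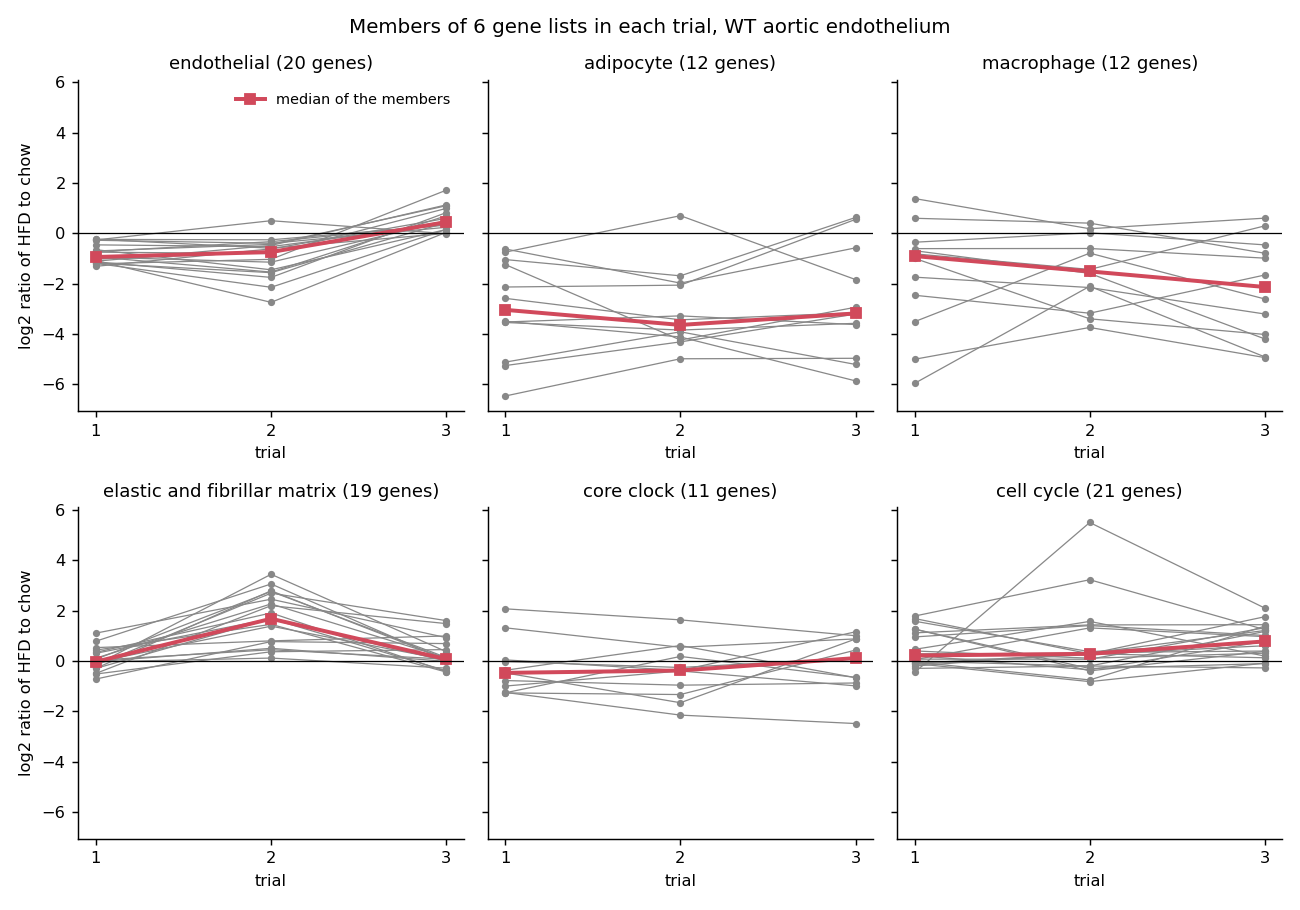
Log2 ratio of HFD to chow of each tested member (grey) of 6 lists in trials 1, 2 and 3, with the median of the members in red; the lines only join the values of a gene, since trials have no order. Adipocyte and macrophage medians stay below 0 in all trials, the endothelial median is above 0 in trial 3 alone, and the matrix median stands out in trial 2.

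Genes of fatty acid handling were lower in part. Acsl1, an acyl-CoA synthetase, was at 2.89, 3.26 and 3.60 on chow and 1.54, 1.79 and 2.44 on HFD, 2.51-fold lower with no overlap (adjusted p = 0.550). Of 18 tested oxidation genes, 10 were lower in all 3 trials, against 11.4% of all genes. At an unadjusted p under 0.05, 4 were lower, against 2.28% of all genes. Ehhadh, a peroxisomal oxidation enzyme, had ratios of -1.20, -2.19 and -1.59, Acot1, a thioesterase, -1.75, -0.90 and -2.82, and Ppara, the nuclear receptor that drives these genes, -0.75, -0.86 and -1.09. Cpt1a, which admits fatty acids to mitochondria, had 0.14, 0.13 and -0.16. The endothelial uptake genes Cd36 (-0.96, -0.59 and 0.49) and Gpihbp1 (-0.92, -0.79 and 0.48) went with the endothelial markers of each trial, and Fabp4 stayed near 0 (0.00, -0.17 and 0.15).

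Of 15 lipogenic genes, 5 were lower in all 3 trials and 0 higher, against 11.4% and 16.0% of all genes. Scd1, the stearoyl-CoA desaturase, had -0.93, -1.63 and -1.02, Fasn, the fatty acid synthase, -0.90, -0.44 and -0.72, and Dgat2, which makes triglyceride, -1.47, -2.41 and -0.24. On the list of glucose entry and glycolysis, Hk2, the hexokinase of insulin-sensitive tissues, had -1.49, -0.63 and -1.06. The median of the respiratory chain genes was 0.10, 0.19 and -0.03 and that of cholesterol synthesis 0.23, -0.08 and -0.24, with Mvd (0.57, 0.87 and 0.81) and Dhcr7 (0.64, 1.26 and 0.61) higher in all trials.

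Of 27 tested genes of vessel tone, 2 were higher and 6 lower in all 3 trials, against 16.0% and 11.4% of all genes. Edn1, the constrictor endothelin 1, had log2 ratios of -0.76, -1.48 and -0.41, Agtr1a, an angiotensin receptor, -0.49, -1.10 and -0.76, and Tbxa2r, the thromboxane receptor, 0.35, 2.10 and 1.13. Agt, angiotensinogen, had -0.95, -1.29 and -5.19, of which trial 3 was the lowest. On the haemostasis list, F13a1, the clotting factor XIII subunit that macrophages and platelets make, was at -1.64, -0.33 and -1.21 on chow and -4.91, -1.82 and -3.38 on HFD without overlap. The brightest of 4 Vegfa probes had ratios of -0.73, -0.75 and -0.75, while each of the others took either sign between trials. Igfbp3, a binding protein of insulin-like growth factors, had -1.0, -1.08 and -0.72.

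The list of inflammatory genes had a median slightly below 0 in each trial, with members on both sides. Their median log2 ratio was -0.11, -0.08 and -0.41 in trials 1, 2 and 3. The mean ratio was below 0 in 12 of 17 tested and above 0 in 5. Of the 17, 2 were higher and 6 lower in all 3 trials, against the same 16.0% and 11.4%. Ccl2 (-0.21, -0.36 and -1.08) and Selp (-0.30, -1.53 and -0.51) were among the 6. At an unadjusted p under 0.05, none was lower and 1 was higher, against 2.28% and 2.79% of all genes. The adhesion molecules Vcam1 (0.67, 0.11 and -0.41), Icam1 (-0.69, -0.92 and 0.11) and Sele (-0.33, -2.32 and -0.55) had no value past 1 in all trials. Cx3cl1, an endothelial chemokine, was higher in all 3 (0.89, 0.36 and 1.22). Il1b was at -6.93, -3.58 and -7.65 on chow, where 1 array was above background, and at -4.29, -3.72 and -4.0 on HFD. The interferon list had a median of 0.12, -0.13 and 1.01, so that trial 3 stood apart. Of 19 tested stress genes, 11 were higher in all trials, against 16.0% of all genes. Among them Creld2, of the endoplasmic reticulum, had 1.29, 1.5 and 0.50 and Hspa5, its chaperone BiP, 0.83, 0.99 and 0.26.

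Of the other galectins, Lgals2 was at -4.18, -8.34 and -8.04 on chow, with 1 array above background, and at -3.58, -3.18 and -4.88 on HFD, and Lgals12, the galectin of adipocytes, had ratios of -0.92, -0.51 and -1.58. Lgals1 had 0.38, 1.53 and 0.02.

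The same diets were set beside each other in KO aorta and WT skeletal muscle, which share no array with the WT aorta. In KO aorta the 12 adipocyte genes had a median mean log2 ratio of -3.68, against -3.27 in WT aorta, and the macrophage list had -0.26 against -2.23. By trial, of which trial 1 holds the HFD arrays that lay between the strains, the KO medians were -5.04, -2.49 and -3.22 for adipocytes and -0.90, -1.27 and 1.51 for macrophages. The difference between the strains was called in 0 of 25829 probes by limma, with a smallest adjusted p of 0.852 and 669 probes at an unadjusted p under 0.05 (2.59%). The smallest p among named genes was that of Foxo3, a forkhead transcription factor, with ratios of 2.75, 2.68 and 2.14 in WT and a mean of -0.99 in KO. The Foxo3 probe was on no WT chow array above background, and the bound for WT was 1.35-fold.

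In WT muscle the adipocyte median was -0.43 and the macrophage median 1.78. By trial, with the same doubt about trial 1, they were 0.55, -0.77 and -0.97 and 0.74, 2.90 and 1.30. The difference from WT aorta was called in 0 of 26532 probes, with a smallest adjusted p of 0.183 and 1499 probes at an unadjusted p under 0.05 (5.65%). Of the members, 7 of 12 adipocyte and 10 of 12 macrophage genes had an unadjusted p under 0.05 for that difference, and the smallest adjusted p in either list was 0.351. Tmod4, a thin filament protein of muscle, had the smallest p, with -3.95, -3.72 and -3.61 in WT aorta, where no HFD array was above background, and a mean of -0.03 in muscle. Cyp1a1 was low on HFD in each comparison, with means of -6.30 in WT aorta, -5.93 in KO aorta and -8.18 in WT muscle. Nr1d1 had 1.57, 2.17 and 2.44, and Dbp 1.79, 2.76 and 1.1.

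**Figure D5:**
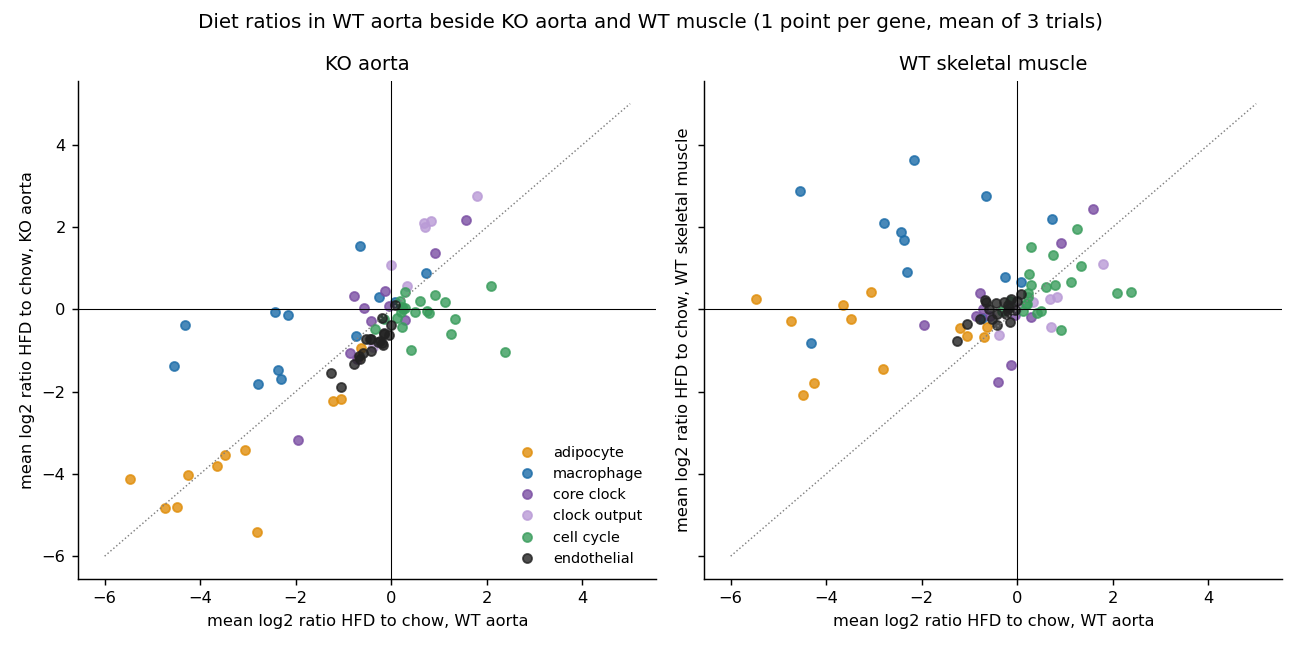
Mean log2 ratio of HFD to chow over 3 trials in WT aorta (x axis) against KO aorta (left) and WT skeletal muscle (right), 1 point per tested gene of 6 lists; the dotted line marks equal ratios. Adipocyte genes lie low in both aortae, with list medians of -3.27 and -3.68, and nearer 0 in muscle, with -0.43.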

How the data were processed

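The authors deposited Agilent Feature Extraction output for each array, with a processed intensity per spot after background subtraction and detrending, not scaled between arrays. The software version is 10.5.1.1 in the file headers and 9.1 in the submitters' processing notes. A deposited table of log2 values equals the log2 of these intensities plus 1 constant per array.

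The intensity was divided by the 75th percentile over 43379 non-control spots of the array and put on the log2 scale. Outlier spots were left out, and spots were averaged per probe (41174 probes). The accession of 27198 probes matched 1 symbol of the RefSeq gene table for GRCm38.p6, and 13976 matched none. The array design names mm9, so no gene coordinates are given outside the promoter windows. With several spots, a probe was taken as above background where at least 0.5 of them were.

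The 6 arrays were fitted with limma version 3.58.1 under R 4.3.3, with data.table version 1.17.8 for reading and with the trial as a block, and 57 tested probes lacked a value on an array, which the fit dropped. Calls needed an adjusted p under 0.05 by Benjamini-Hochberg over all probes tested. The prior degrees of freedom were 2.28 beside 2 residual ones. Differences between strains and tissues were contrasts over 12 arrays. The pairing comes from the trial number in the titles, which the methods' ratios and the slides share. Deviations of same-numbered arrays from the group means correlated at 0.39, 0.09 and 0.10 across probes. Differently numbered pairs lay between -0.45 (chow trial 1 with HFD trial 3) and 0.30 (chow trial 2 with HFD trial 3). The values of trials 2 and 3 thus do not bear out the pairing, which rests on the labels. Fits were tested on simulated data with known changes and less spread than these arrays show, which checks the code and not the power. Tables were made with Python 3.11.15, pandas 2.3.3 and numpy 2.4.6, and figures with matplotlib 3.10.9.

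Named genes are the 15 highest and 15 lowest past 1 in all 3 trials, list members past 1 in all 3 or with the extreme mean, defining markers, Lgals3 and the smallest p of each difference. Other list members are named to show their group and were chosen after their values were seen. The members and the 39 lists, with 560 genes of which 514 were tested, were chosen with earlier results of these data known. Lists are described without a test. An item that the naming rule selects is not reported here. Alternatives were another background correction, quantile scaling, the deposited table, other filters, other blocks, the methods' t-test and each trial left out. Arrays have no depth in counts, and their number limits the precision. With the trial as a block, p-values measure the spread, as moderated by limma, of the HFD to chow ratios of paired pools.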

Additional observations from a re-analysis of the deposited data

Results flagged for a closer look

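In several results every trial of WT aorta moved one way with the diet and every trial of another group the opposite way. The log2 ratios of muscle minus those of aorta were, among macrophage genes, 4.05 for C1qc, 7.42 for Folr2 and 4.31 for Ms4a7. For other genes lower in WT aorta and higher in WT muscle, they were 5.42 for Cd209b, 4.85 for Cd209f, 7.49 for Retnla, 4.49 for Mmp9, 3.51 for F13a1, 2.66 for Pf4, 2.93 for Thbs1, 1.83 for Acsl1 and 9.46 for Pon1. Of these, Folr2, Cd209b and Mmp9 were above background on 1 of 3 WT aortic HFD arrays and Pon1 on 2, so that their differences rest on dim signals. For Foxo3, higher in WT aorta but above background on no WT aortic chow array, the nominal difference was -3.22 in muscle and -3.52 in KO aorta, and its size is not measured. The trial 1 HFD arrays of both tissues, which lay between the strains, enter all of these values. The limma tests of these differences gave adjusted p values from 0.351 to 0.738 for the muscle, and 0.852 for Foxo3 in KO aorta, so none passed.

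List medians that took opposite signs in every trial differed by 4.01 for macrophages, -1.22 for pericytes, -0.58 for smooth muscle and 0.31 for adhesion and inflammation, each as muscle minus aorta. The erythroid list, of 3 tested genes, differed by -1.80 between KO and WT aorta. The differences of the list medians were not tested.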

How the results depend on the processing

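The adjusted count of 0 probes stayed 0 under normexp, quantile scaling, the deposited table, both filters, the methods' t-test, the fit with no replicate block, the 12-array fit with strain and trial blocks, and each trial left out. With the slide as a block over 12 aortic arrays it was 2, Lrrc55 (log2 change 4.19) and Slc26a4 (-3.80). Lrrc55 was above background on no WT chow array, so the size of its change is not measured beyond the bound given above. Slc26a4 was above background on all 3 arrays of each diet. The count at an unadjusted p under 0.05 was 1022 with no replicate block, between 1155 and 1926 with a trial left out, and within 1.5 times of 1501 throughout. Past 1 in all trials were 100 higher and 136 lower probes under normexp, 55 and 94 among probes above background on all 6 arrays, and 409 to 614 higher and 461 to 857 lower over the remaining trials when 1 was left out. Both differences kept 0 calls. Their unadjusted counts were 1102 for the strains with no filter, 703 to 1178 for them with a trial left out, and 931 for the tissues with no replicate block. Of the list medians, normexp moved that of macrophages to -1.42 and that of other leukocytes to 0.18. With a trial left out, medians ranged from -0.88 to -0.10 for endothelial, from -1.56 to 0.12 for brown adipocyte, from 0.0015 to 0.95 for elastic and fibrillar matrix, from -0.0077 to 0.77 for fibroblast, from 0.0196 to 0.53 for interferon response, from -2.05 to -1.04 for platelet, from -0.50 to 0.28 for lymphatic endothelial, from 0.0926 to 0.44 for smooth muscle, from -2.25 to -1.54 for macrophage, from 0.38 to 0.66 for other leukocyte, from 0.0247 to 0.62 for clock output, from 0.25 to 0.53 for heat shock and ER stress, from -0.31 to -0.0897 for vascular tone and from -0.0192 to 0.17 for galectins. Of 234 recomputed list medians, 14 took the other sign, none of them of the adipocyte or macrophage list, and of 840 values of single genes 13 did, none past 1 in all 3 trials. The causes were not tested. Dim probes limit the folds: 22 of the 96 higher genes were not above background on any array of 1 diet.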

Other observations

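Genes that were on no list, named after their values were seen, included acute phase and transport proteins that the liver is known to secrete. Orm1 had log2 ratios of -4.11, -3.34 and -3.85 in trials 1, 2 and 3 of WT aorta, Orm2 -3.40, -2.97 and -3.83, Hp, haptoglobin, -1.61, -2.04 and -4.10 and Apoc1 -1.97, -1.70 and -4.45. Mup1, a major urinary protein, had -6.51, -1.82 and -2.65. The Mup and Orm genes have near-identical copies that a probe may not separate, so which copy was read is uncertain. All were lower by over 1 in all 3 trials, and their mean ratios in KO aorta were -2.92, -3.42, -2.19, -3.13 and -1.68. The acute phase gene Saa3 went the other way in WT aorta, with 0.87, 2.13 and 2.38.

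Other genes that the receptor of Cyp1a1 is known to induce had smaller ratios. Cyp1b1 had log2 ratios of -0.27, 0.61 and -0.65, Tiparp -0.25, 0.47 and -0.42 and Nqo1 -0.78, -0.96 and -0.33. Clec10a, a lectin of the macrophages that carry Folr2, had -1.75, -2.37 and -3.0, and the mitotic genes Tpx2 and Cenpf, which were on no list, had 1.27, 2.25 and 2.11 and 1.51, 1.53 and 2.61.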
